A study of Mus musculus with 4 samples.

Results

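Galectins are lectins that bind β-galactosides on glycoproteins and glycolipids, and their transcripts were followed here in mouse embryonic stem cells after knockdown of the long noncoding RNA Cyrano. The genes Lgals1, Lgals3, Lgals4, Lgals8 and Lgals9 were taken with Lgals3bp, the gene of a galectin-binding glycoprotein, by their symbols in the count files, which makes 6 genes of 23366. The family and the contrast were chosen with earlier results of these data known. The members' levels and differences between knockdown and control are therefore given as a description. Fitted differences, their intervals and the adjusted p of Lgals3 come from the contrast that chose the family and support nothing here. Of the 6 members, 5 passed the filter on low counts and Lgals3bp did not.

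Polyadenylated RNA was sequenced, with a strand-specific library method, from the embryonic stem cell line R1, whose strain is given as 129X1 x 129S1. The 2 knockdown libraries came from cells transfected with a short hairpin RNA against Cyrano, and the 2 control libraries from cells that received a non-targeting hairpin in the same vector. The vector, pSicoR-Ef1a-mCh-Puro, was the same in both groups, and transfected cells were enriched with puromycin or by flow cytometry. The cultures grew on gelatin with serum and LIF, the cytokine that sustains self-renewal. The series' title concerns Cyrano, microRNA activity and self-renewal, and the comparison bears on which transcripts differ when Cyrano is low. The design text calls the libraries biological replicates, and no source used here says how the cultures were separated, so the errors below measure the spread between these libraries, which may be technical.

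A galectin holds 1 or 2 carbohydrate recognition domains. Prototype galectins such as galectin-1 have a single domain and form dimers, galectin-3 joins its domain to a flexible tail through which it oligomerises, and the tandem-repeat galectins galectin-4, galectin-8 and galectin-9 join 2 different domains in a chain. Galectins are made in the cytosol and leave the cell without a signal peptide. Outside, they cross-link glycoproteins at the cell surface and in the matrix, and inside they mark damaged endosomes and lysosomes and take part in signalling and RNA splicing.

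Cyrano is known for pairing with the microRNA miR-7, so the mature miR-7 sequences are shown with the heptamers that were searched for in the galectin transcripts. Capitals mark the seed, bases 2 to 8, which both forms share (RefSeq, GRCm38.p6).
mmu-miR-7a-5p: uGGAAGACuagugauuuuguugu
mmu-miR-7b-5p: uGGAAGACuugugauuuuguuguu
The matches searched were GTCTTCC, which pairs with the seed, and TCTTCCA, which pairs with bases 2 to 7 and ends in A. The 2 overlap in TCTTCC, and transcripts were read on the sense strand. Neither heptamer was found in the longest annotated 3′ UTR of any of the 6 members, whose lengths ran from 75 bases in Lgals4 to 1430 bases in Lgals8, with 480 bases in Lgals3. Of 20657 genes with a 3′ UTR of at least 50 bases, 23.6% held a match. Among the other galectin family genes Lgals12, a gene known from fat cells, held a single match, shown in capitals in the stretch around it.
Lgals12: ctctgcatctaTCTTCCAcattcaaattct
Its counts were 4 and 3 in the knockdown libraries and 2 and 2 in the controls, too few for a comparison at this depth.

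Reads counted in genes came to 22321102 and 20761783 in knockdown libraries 1 and 2, and 16854403 and 19138196 in control libraries 1 and 2. Cyrano, listed as 1700020I14Rik, had 89 and 68 counts in the knockdown libraries and 407 and 286 in the controls, with a fitted log2 difference of -2.48 ± 0.30 (SE; adjusted p = 0.0070 by edgeR). The knockdown libraries were the lower ones, as their labels say. Without control library 1 the difference was -2.08 (adjusted p = 0.12), and without control library 2 it was -2.79 (adjusted p = 0.057). Of 13199 genes tested, 11 had an adjusted p under 0.05 by edgeR's quasi-likelihood test, which is 0.0833%, with 0.0379% higher and 0.0455% lower. Rn45s, the ribosomal RNA precursor, took 12.3% and 11.03% of the reads counted in genes in the knockdown libraries, against 17.5% and 15.9% in the controls. The pluripotency genes that define stem cells were present at high levels in all the libraries: the summed level of 12 such genes was 5750 and 5463 CPM, or counts scaled to a common library size, in the knockdown libraries, against 5766 and 6013 CPM in the controls. Of the 12, 2 were higher and 2 lower at an unadjusted p under 0.05 by edgeR, where 11.6% of all genes tested had such a p. The median log2 fold change of the 12 was -0.036. Among them Nanog, a core pluripotency factor gene, had 129 and 133 CPM in the knockdown libraries, against 216 and 228 CPM in the controls (-0.76 ± 0.14, edgeR adjusted p = 0.070).

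Lgals3 had the largest fitted difference of the 7 galectin-family genes that could be tested. It encodes galectin-3, known as the macrophage antigen Mac-2 and made by many epithelia. Its raw counts were 347 and 333 in the knockdown libraries, against 710 and 1088 in the controls. Scaled for library size, it had 15.5 and 15.5 CPM in knockdown libraries 1 and 2, against 43.2 and 57.6 CPM in control libraries 1 and 2. The knockdown libraries were nearly equal and both lay below both controls, which differed from each other. The means were 15.5 ± 0.0525 CPM in knockdown cells and 50.4 ± 10.2 CPM in control cells (SD, n = 2 each), a 3.25-fold lower level. The log2 fold change was -1.70 ± 0.20 (SE), with a 95% interval of -2.13 to -1.27. Lgals3 was the single member among the 11 genes with an adjusted p under 0.05 (0.0070 by edgeR), and since that result was known when the family was chosen nothing is read from it. Without control library 2 the log2 fold change was -1.48 and the adjusted p 0.11. In bulk RNA, fewer cells that express a gene and less RNA per cell cannot be told apart.

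**Figure D1:**
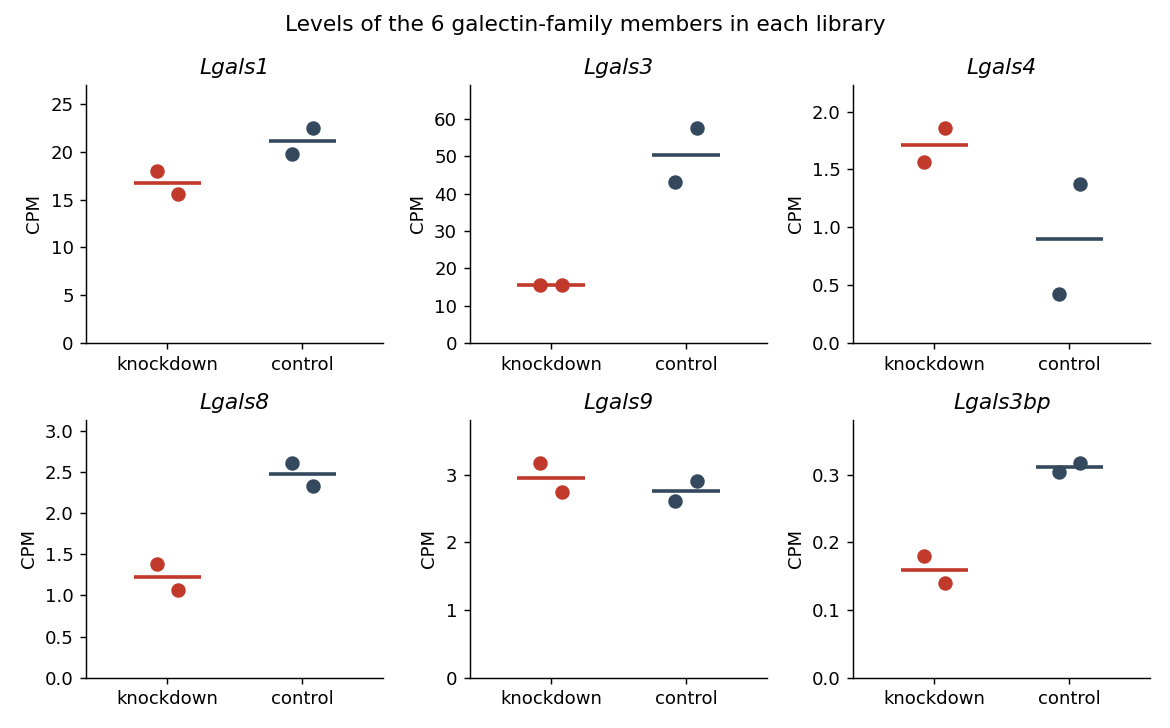
Levels of the 6 members in scaled counts (CPM), with a separate vertical axis from 0 for each gene. Points are the 2 knockdown and 2 control libraries and bars their means. Lgals3 lies at 15.5 and 15.5 CPM in the knockdown libraries and at 43.2 and 57.6 CPM in the controls, while the points of Lgals9 overlap.

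The promoter of Lgals3 is shown because this gene had the largest fitted difference, and it can be set against the promoters of the other members. The 300 bases run from 250 before to 50 after the annotated start, at chr14:47373610-47373909 on the plus strand (RefSeq, GRCm38.p6, which is not the mm9 build of the count files). Capitals mark GC boxes, GGGCGG on either strand, the element bound by factors of the Sp and KLF kind.
Lgals3: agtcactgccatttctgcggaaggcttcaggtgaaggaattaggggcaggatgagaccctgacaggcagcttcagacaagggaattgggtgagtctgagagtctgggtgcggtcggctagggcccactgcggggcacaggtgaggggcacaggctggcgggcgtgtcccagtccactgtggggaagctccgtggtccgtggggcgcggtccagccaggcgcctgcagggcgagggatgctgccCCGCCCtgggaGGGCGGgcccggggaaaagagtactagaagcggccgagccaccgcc
This stretch held 2 GC boxes and 67.0% G and C, against a median of 52.7% over 27025 promoters. A GC box was present in 35.6% of those promoters. Of the members, Lgals4 had 1 GC box and Lgals8, Lgals9 and Lgals3bp had none, and for Lgals1 the table used held no entry. The stretches of Lgals4 and Lgals8 lay wholly inside the RefSeq span of the gene. They therefore describe an inner start, unlike that of Lgals3. TATAAA and TGACTCA, searched on both strands, were found in none of these 5 promoters, and in 14.1% and 5.2% of all promoters. No factor's binding was measured, and the matches are a description of the letters alone.

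Lgals1 encodes galectin-1, the prototype galectin, which is abundant in mesenchymal cells and in trophectoderm. Its counts were 401 and 336 in the knockdown libraries, and 325 and 425 in the controls. It had 17.96 and 15.6 CPM in the knockdown libraries, against 19.8 and 22.5 CPM in the controls. Both knockdown libraries lay below both controls, but the gap between the groups was smaller than the spread within either. The log2 fold change was -0.33 ± 0.21 (SE), with a 95% interval of -0.79 to 0.12. A pseudogene of Lgals1 is annotated by RefSeq, and reads that match both are not counted, so the level of Lgals1 may be understated by an unknown amount. Gm30368, a RefSeq gene without a row among the counts, overlaps Lgals1, and its reads could have been counted as Lgals1. Its part in the Lgals1 counts was not tested.

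The ratio of Lgals3 to Lgals1 counts needs no scaling between libraries. It was 0.865 and 0.991 in the knockdown libraries, against 2.18 and 2.56 in the controls. The exact 95% intervals, which cover counting error only, were 0.747 to 1.00 and 0.849 to 1.16 in the knockdown libraries, and 1.91 to 2.50 and 2.29 to 2.87 in the controls. Lgals3 had fewer counts than Lgals1 in both knockdown libraries and more in both controls. Replicate libraries differed far beyond counting error over all genes, so these intervals do not compare the groups. Lgals3 gave 39.0% and 41.9% of the counts of the 6 members in the knockdown libraries, against 62.7% and 66.2% in the controls. The Wilson 95% intervals of these shares were 35.9% to 42.3% and 38.6% to 45.4% in the knockdown libraries, and 59.8% to 65.4% and 63.9% to 68.4% in the controls. The summed level of the other 5 members was 24.3 and 21.4 CPM in the knockdown libraries, against 25.7 and 29.4 CPM in the controls. Lgals1 made up most of that sum in each library.

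The tandem-repeat galectins were present at low levels and did not share a direction. Lgals8 encodes galectin-8, which binds glycans exposed on damaged vesicles and recruits an autophagy receptor. It had 31 and 23 counts in the knockdown libraries, or 1.39 and 1.07 CPM, against 43 and 44 counts in the controls, or 2.62 and 2.33 CPM. Both knockdown libraries lay below both controls, with a log2 fold change of -1.004 ± 0.50 (SE) and a 95% interval of -2.09 to 0.08. These were low counts, and the interval is wide.

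Lgals4 encodes galectin-4, a lectin of the intestinal epithelium. It had 35 and 40 counts in the knockdown libraries, or 1.57 and 1.86 CPM, against 7 and 26 counts in the controls, or 0.43 and 1.38 CPM. Both knockdown libraries lay above both controls, and control library 1 was the low one. The log2 fold change was 0.90 ± 0.64 (SE), with a 95% interval of -0.48 to 2.29. Without control library 1 it was 0.31, and without control library 2 it was 1.99, so its size rests on which control is used. The exact Poisson interval of the 26 counts in control library 2 was 0.90 to 2.02 CPM, which covers both knockdown values. Lgals6, a near-copy of Lgals4 that some mouse strains carry and others lack, was listed at 0 in each library. How reads of such a copy were assigned is not known, so the counts of Lgals4 are uncertain to that extent.

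Lgals9 encodes galectin-9, a ligand of the immune receptor TIM-3 that responds to interferon in other cells. It had 71 and 59 counts in the knockdown libraries, or 3.18 and 2.74 CPM, against 43 and 55 counts in the controls, or 2.62 and 2.91 CPM. The groups overlapped. The log2 fold change was 0.10 ± 0.40 (SE), with a 95% interval of -0.76 to 0.96.

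Lgals3bp encodes a secreted scavenger-receptor glycoprotein that binds galectin-3 and is no lectin of the family itself. It had 4 and 3 counts in the knockdown libraries, against 5 and 6 counts in the controls, and was too low to be tested. These are levels of 0.179 and 0.139 CPM in the knockdown libraries, and 0.304 and 0.318 CPM in the controls. The exact Poisson intervals ran from 0.029 to 0.459 CPM over the knockdown libraries and from 0.099 to 0.71 CPM over the controls, so that they overlapped and no difference was detectable at this depth.

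**Figure D2:**
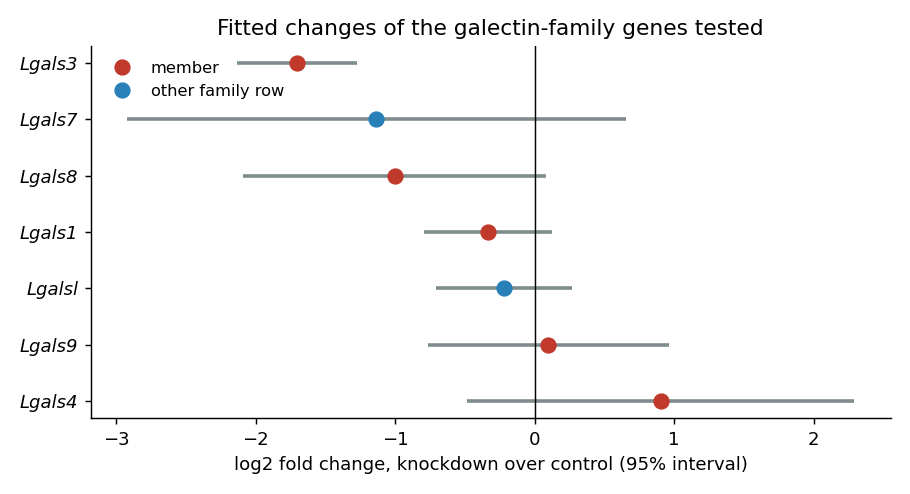
Fitted log2 fold changes, knockdown over control, of the 7 galectin-family genes that passed the filter on low counts. Points are estimates and lines 95% intervals, red for the members and blue for other family rows. The interval of Lgals3, -2.13 to -1.27, lies below 0 and the intervals of the other 6 genes include 0.

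Of the 5 members tested, 3 were lower and 2 higher in knockdown cells by their fitted values. Their median log2 fold change, which is the value of Lgals1, was -0.33, and that over all genes tested was -0.0016. The 5 include Lgals3, whose difference was known when the family was chosen. In 4 of the 5 the groups did not overlap, with the knockdown libraries below in 3 and above in 1. Of all genes tested 43.5% did not overlap, with the knockdown libraries below in 21.3% and above in 22.3%. Lgals3bp was below the filter, so those shares do not cover it. Both its knockdown libraries lay below both controls, but at 4 and 3 counts against 5 and 6, and no difference was detectable.

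Other rows of the family were low apart from Lgalsl. Lgalsl encodes a galectin-like protein related to the prototype galectins. It had 300 and 280 counts in the knockdown libraries, or 13.4 and 13.0 CPM, against 265 and 278 counts in the controls, or 16.1 and 14.7 CPM. The knockdown libraries lay below the controls, and the log2 fold change was -0.22 ± 0.22 (SE). Lgals7, a galectin gene of keratinocytes, had 10 and 6 counts in the knockdown libraries and 18 and 10 in the controls, with a log2 fold change of -1.13 ± 0.83. It was -0.54 without control library 1, and ran from -1.58 to -0.54 over the left-out libraries. Lgals2, a prototype galectin gene of the gut, had 28 and 8 counts in the knockdown libraries, against 1 and 4 in the controls. Knockdown library 1 gave most of the Lgals2 reads, and the gene was under the filter. Lgals2 overlaps Cdc42ep1 at its end in the RefSeq annotation. Cdc42ep1, an effector of the GTPase CDC42, had 23.1 and 18.4 CPM in the knockdown libraries and 11.2 and 12.6 CPM in the controls. Its part in the Lgals2 counts was not tested. Grifin, a galectin-related gene of the lens, was listed at 0 in each library.

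Levels of different genes were compared per kilobase of the longest annotated transcript. In the knockdown libraries Lgals1 was the highest, at 22.5 and 19.5 CPM per kilobase, followed by Lgals3 at 10.95 and 10.90. In the controls the order of these 2 genes was the other way, with Lgals3 at 30.4 and 40.6 CPM per kilobase and Lgals1 at 24.7 and 28.1. Within each group the values of the 2 genes did not overlap. The ratio of Lgals3 to Lgals1 per kilobase was 1.23 and 1.44 in the controls. The order there is uncertain to the extent that reads of Lgals1 were miscounted. Among the 13113 genes tested that had a length, the mean level of Lgals3 was at percentile 63.5 in knockdown cells and at percentile 86.0 in control cells. Lgals1 was at percentile 76.8 in knockdown cells and at percentile 81.2 in control cells.

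The remaining members were far lower per kilobase. Lgals9 had 2.01 and 1.73 CPM per kilobase in the knockdown libraries, and 1.65 and 1.84 in the controls, above Lgals4 and Lgals8 in each library. Lgals4 had 1.13 and 1.34 CPM per kilobase in the knockdown libraries, and 0.31 and 0.99 in the controls. Lgals8 had 0.49 and 0.38 CPM per kilobase in the knockdown libraries, and 0.92 and 0.82 in the controls, so that Lgals4 was above Lgals8 in both knockdown libraries. In the controls the values of these neighbours in the order overlapped, and they did not differ there beyond their spread. Lgals3bp was the lowest member in each library, between 0.060 and 0.136 CPM per kilobase. With the median length of the annotated transcripts instead, Lgals3 was still above Lgals1 in both controls and below it in both knockdown libraries. With that length Lgalsl stood above Lgals3 in the knockdown libraries, which it did not per longest transcript, and Lgals4 stood above Lgals9 in knockdown library 2.

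**Figure D3:**
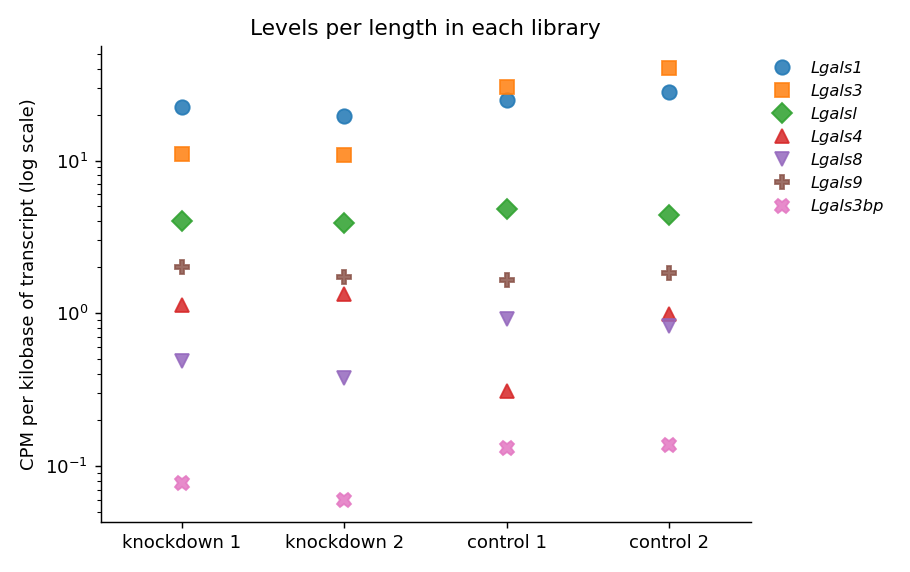
Levels per kilobase of the longest annotated transcript in each library, on a log scale, for the 6 members and Lgalsl. Lgals1 lies above Lgals3 in both knockdown libraries, at 22.5 and 19.5 against 10.95 and 10.90, and below it in both controls, at 24.7 and 28.1 against 30.4 and 40.6 CPM per kilobase.

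The profile of Lgals3 over the 4 libraries was compared with those of 12109 tested genes with a mean of at least 1 CPM. Log2 levels were centred on each gene's mean, and likeness was the root mean square difference. Lgals3 itself had centred values of -0.84 and -0.84 in the knockdown libraries, and 0.63 and 1.05 in the controls. The nearest gene was Ppp1r14d, which encodes an inhibitor of protein phosphatase 1, at a difference of 0.149. Its levels were 3.31 and 2.60 CPM in the knockdown libraries, against 8.09 and 12.8 CPM in the controls. Next came Tmem8b, which encodes a membrane protein, at 0.154, and She, an SH2 adaptor gene, at 0.160. She had 10.8 and 11.6 CPM in the knockdown libraries, against 34.7 and 34.3 CPM in the controls. Actn3, the gene of a muscle α-actinin, followed at 0.163, with 10.8 and 10.7 CPM in the knockdown libraries and 22.8 and 35.3 CPM in the controls. The fifth was Cldn19, a tight-junction claudin gene, at 0.177. It had 13 and 15 counts in the knockdown libraries, against 39 and 44 in the controls. Tmem8b had 30 and 28 counts in the knockdown libraries, against 52 and 77 in the controls. The likeness of Cldn19 and Tmem8b to Lgals3 thus rests on low counts. All 5 genes share the 4 libraries with Lgals3, and the likeness is a description.

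The protein-coding genes next to Lgals3 on the chromosome were added after the values of the members were seen. Dlgap5, a mitotic spindle gene, had 83.4 and 81.7 CPM in the knockdown libraries, against 93.8 and 82.0 CPM in the controls, with overlapping groups and a log2 fold change of -0.09 ± 0.15 (SE; edgeR adjusted p = 0.86). Mapk1ip1l on the other side had 218 and 214 CPM in the knockdown libraries, against 257 and 212 CPM in the controls, and a log2 fold change of -0.12 ± 0.15 (adjusted p = 0.80). No other annotated gene in the RefSeq table overlapped Lgals3.

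Genes around the galectins were read from lists of enzymes that build their ligands, of ligands and of partners. None of 136 tested genes in these lists, in the pluripotency list above and in the marker lists below had an adjusted p under 0.05 by edgeR. Of the 136, 26, or 19.1%, had an unadjusted p under 0.05, where 11.6% of all genes tested did. That 11.6% is the share to set beside the count of each list below. DESeq2 called 4 of the 136, Bst2, Gata4, Nanog and Pdgfra, and limma-voom none. Galectins bind N-acetyllactosamine, which branching enzymes and galactosyltransferases add to N-glycans. Of 23 tested genes of this synthesis, 2 were higher and 3 lower at an unadjusted p under 0.05, and the median log2 fold change was -0.05. B3gnt7, a poly-N-acetyllactosamine enzyme gene, had 207 and 202 CPM in the knockdown libraries, against 158 and 166 CPM in the controls (0.34 ± 0.14, edgeR adjusted p = 0.36). B3gnt2, which encodes an extender of these chains, was 0.41 ± 0.17 higher on the log2 scale by its fitted value (adjusted p = 0.37). B3gnt3, a related enzyme gene, had 4.26 and 5.06 CPM in the knockdown libraries, against 8.40 and 8.10 CPM in the controls (-0.82 ± 0.30, adjusted p = 0.31). Slc35a2, the gene of the transporter that carries UDP-galactose into the Golgi, had 14.7 and 11.9 CPM in the knockdown libraries, against 19.9 and 18.7 CPM in the controls (-0.53 ± 0.22, adjusted p = 0.37). Among 7 tested sialyltransferase genes, whose products cap galactose, no gene reached an unadjusted p under 0.05, with a median of -0.11.

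Glycoproteins that galectins bind were read next. The 23 tested genes had a median log2 fold change of 0.0020, with 1 higher and 1 lower at an unadjusted p under 0.05. Fn1, the fibronectin gene, had 1017 and 785 CPM in the knockdown libraries, against 998 and 640 CPM in the controls. Lamc1, the laminin γ1 gene, had 827 and 644 CPM in the knockdown libraries, against 912 and 718 CPM in the controls. Mcam, the gene of a cell adhesion molecule that galectins bind, had 160 and 130 CPM in the knockdown libraries, against 214 and 192 CPM in the controls (-0.49 ± 0.15, edgeR adjusted p = 0.24). Itga1, an integrin gene, had 5.64 and 3.16 CPM in the knockdown libraries, against 2.56 and 0.74 CPM in the controls (1.43 ± 0.55, adjusted p = 0.35).

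Partners of galectins inside the cell showed 2 lower and no higher members at an unadjusted p under 0.05. The median log2 fold change was 0.019 over 19 genes that act with galectins at damaged endosomes and lysosomes. Calcoco2, the gene of the autophagy receptor that galectin-8 recruits in human cells, had 2.51 and 2.79 CPM in the knockdown libraries, against 5.11 and 4.55 CPM in the controls (-0.87 ± 0.36, edgeR adjusted p = 0.37). Ulk1, an autophagy kinase gene, had 282 and 261 CPM in the knockdown libraries, against 332 and 354 CPM in the controls (-0.34 ± 0.14, adjusted p = 0.37). Of 13 tested genes of nuclear and cytosolic partners, no gene reached an unadjusted p under 0.05, with a median of 0.052. Gemin4, a splicing factor gene whose product binds galectin-1 and galectin-3, had 105 and 89.98 CPM in the knockdown libraries, against 136 and 96.4 CPM in the controls (-0.25 ± 0.18, adjusted p = 0.61).

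**Figure D4:**
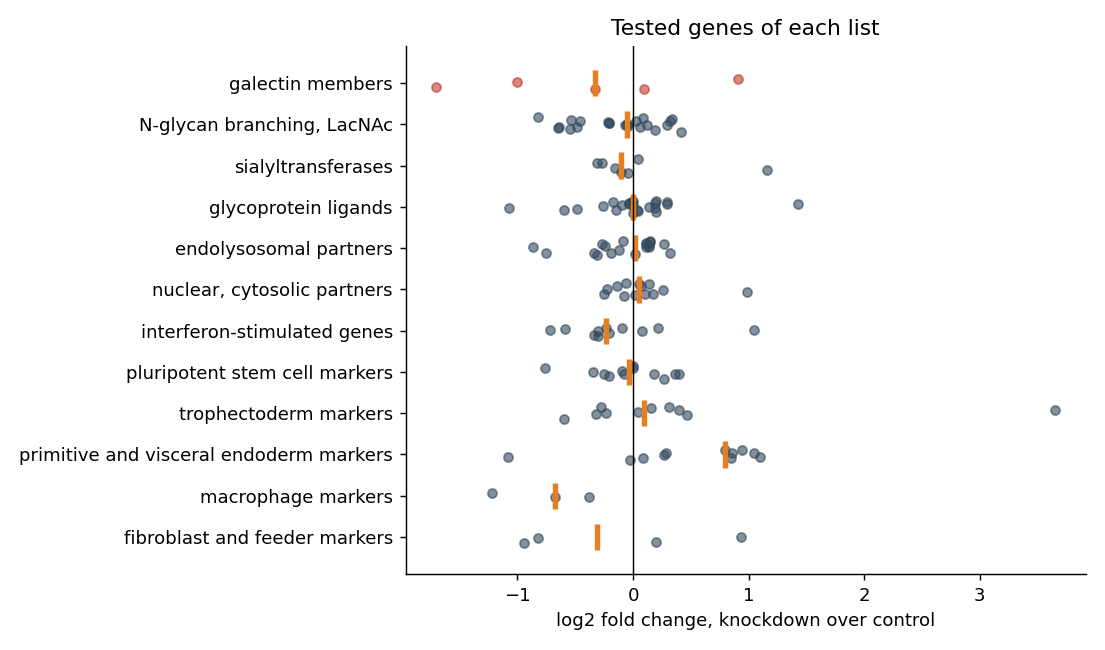
Log2 fold changes, knockdown over control, of the tested genes of each list. Points are genes, red for the 5 tested members, and orange bars are medians. The medians of the enzyme, ligand and partner lists lie between -0.11 and 0.052, that of the endoderm markers at 0.79, that of the 4 fibroblast markers at -0.31 and that of the 3 macrophage markers at -0.67.

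Markers of cell types known to express galectins were read beside the members. Galectin-3 is a macrophage antigen, and of 10 macrophage markers in the files 5 were at 0 in every library, among them Ptprc, the pan-leukocyte gene CD45, and Emr1, which encodes F4/80. The summed level of the 10 was 19.3 and 11.3 CPM in the knockdown libraries, against 25.6 and 21.3 CPM in the controls, most of it from Cd68, a lysosomal glycoprotein gene. Cd68 had 16.4 and 9.24 CPM in the knockdown libraries and 21.96 and 19.0 CPM in the controls (-0.67 ± 0.27, edgeR unadjusted p = 0.028, adjusted p = 0.36). The 3 tested macrophage markers, Cd68, Itgam and Cd14, all had fitted values below 0, where the median over all genes tested was -0.0016. The median log2 fold change of the 3 markers was -0.67, with 1 lower and none higher at an unadjusted p under 0.05. Cd14 had the lowest value, from 5 and 6 counts in the knockdown libraries, against 9 and 12 in the controls (-1.22 ± 0.89, edgeR adjusted p = 0.63). Itgam had overlapping groups (-0.38 ± 0.52, adjusted p = 0.82). Galectin-1 and galectin-3 are made in trophectoderm, whose 13 markers summed to 96.7 and 88.1 CPM in the knockdown libraries and 91.9 and 81.6 CPM in the controls. Of the 10 tested trophectoderm markers, 1 was higher and none lower at an unadjusted p under 0.05, with a median log2 fold change of 0.098. The higher one was Gcm1, a placental transcription factor gene, with 40 and 11 counts in the knockdown libraries, against 3 and 0 in the controls (edgeR unadjusted p = 0.0081, adjusted p = 0.24). Krt8, a simple keratin gene of that layer, had 12.0 and 13.3 CPM in the knockdown libraries and 13.2 and 16.6 CPM in the controls. The part of these cell types in the Lgals3 difference was not tested.

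Fibroblasts express galectin-1, and of 12 fibroblast and feeder markers 5 were at 0 in every library, among them the collagen gene Col3a1 and the decorin gene Dcn. The 12 summed to 57.3 and 31.5 CPM in the knockdown libraries, against 45.7 and 31.6 CPM in the controls, most of it from Thy1. Of the 4 tested, 1 was higher and none lower at an unadjusted p under 0.05, with a median log2 fold change of -0.31. The higher one was Twist1, a mesenchymal transcription factor gene, with 6.81 and 8.04 CPM in the knockdown libraries, against 2.43 and 5.30 CPM in the controls (0.93 ± 0.38, edgeR adjusted p = 0.36). Col1a1 went the other way, with 0.81 and 1.53 CPM in the knockdown libraries, against 2.49 and 2.01 CPM in the controls (-0.94 ± 0.55, adjusted p = 0.53). Fbln2 was also lower in both knockdown libraries (-0.82 ± 0.51, adjusted p = 0.56), and the groups of Thy1 overlapped (0.20 ± 0.44). Lgals9 and Lgals3bp are interferon-induced in many cells. Of 22 interferon-stimulated genes in the files, 11 were tested, 1 was higher and 2 lower at an unadjusted p under 0.05, the median log2 fold change was -0.24, and the summed level was 208 and 200 CPM in the knockdown libraries against 210 and 214 CPM in the controls. Bst2, the tetherin gene, had 62.3 and 61.8 CPM in the knockdown libraries, against 25.7 and 34.4 CPM in the controls (1.04 ± 0.18, edgeR adjusted p = 0.063). Stat2, a transducer of interferon signals, had 16.98 and 21.1 CPM in the knockdown libraries, against 29.7 and 27.4 CPM in the controls (-0.59 ± 0.20, adjusted p = 0.29). Ifit3, Mx1 and Mx2 were at 0 in every library.

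Gut-type galectin genes such as Lgals4 and Lgals2 are expressed in endodermal epithelia. Lgals4 had 1.57 and 1.86 CPM in the knockdown libraries, against 0.43 and 1.38 CPM in the controls (edgeR adjusted p = 0.61). Lgals2 had 1.25 and 0.37 CPM in the knockdown libraries, against 0.061 and 0.21 CPM in the controls. Lgals2 was under the filter, and knockdown library 1 gave most of its reads. Knockdown values above those of both controls were found in 22.3% of all genes tested, a share that does not cover Lgals2. The markers read here are of primitive and visceral endoderm, not of gut epithelium. Of 11 tested primitive and visceral endoderm markers, 6 were higher and 1 lower at an unadjusted p under 0.05 by edgeR. The lower one was Hnf4a, at -1.09. Of all genes tested, 11.6% had such a p in either direction. None of the 11 markers had an adjusted p under 0.05, and their median log2 fold change was 0.79. Lrp2, another marker of the list, had 115 and 62.9 CPM in the knockdown libraries, against 123 and 57.4 CPM in the controls (-0.03 ± 0.43, edgeR adjusted p = 0.99). The 14 markers in the files summed to 332 and 296 CPM in the knockdown libraries, against 270 and 205 CPM in the controls, and Ttr, the transthyretin gene, was at 0 in every library. Gata4, an endoderm transcription factor gene, had 30.3 and 36.6 CPM in the knockdown libraries, against 12.8 and 21.9 CPM in the controls (0.94 ± 0.25, edgeR adjusted p = 0.18). Pdgfra, a receptor gene of primitive endoderm, had 32.03 and 50.9 CPM in the knockdown libraries, against 18.2 and 20.4 CPM in the controls (1.10 ± 0.23, adjusted p = 0.093). Control library 1 was the lowest of the 4 for Gata4, Pdgfra and Lgals4, and the highest of the 4 for Lrp2. The part of endoderm cells in the Lgals4 and Lgals2 counts was not tested.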

How the data were processed

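Each deposited file gives 1 library's raw counts of reads by gene symbol, not normalized, as their whole numbers and unequal totals show. Per the submitters' processing notes, TopHat, HTSeq, SAMtools and bedtools were used with build mm9. Not given in the sources used here are versions, annotation, strand setting and which enrichment or RNA kit served each library. Without the strand setting, reads from overlapping genes on opposite strands cannot be told apart. Tallies that name no gene were left out: 26.1% to 32.8% of all tallied reads had no unique alignment, 6.39% to 7.61% fell in no gene and 0.459% to 0.60% were ambiguous, while the tallies for low quality and unaligned reads were 0.

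Groups and replicate numbers came from the titles. The whole table was fitted with edgeR 4.0.16 in R 4.3.3 (filterByExpr with a minimum count of 10, TMM, robust glmQLFit, glmQLFTest, group the only term), with two-sided tests and Benjamini-Hochberg adjustment over 13199 genes at 0.05. Each SE is the size of the fitted log2 difference divided by √F, and 95% intervals use the t distribution. CPM is on TMM-scaled library sizes (factors 0.976 to 1.04), and the prior count for log2 CPM was 2. The biological coefficient of variation was 17.4%. An exact permutation test of 2 libraries against 2 cannot go below p = 0.333. Replicates differed far beyond sampling noise (chi-square per degree of freedom 20.5 between knockdown and 25.4 between control libraries). Intervals from counts cover counting error only. The fit was tested on simulated data.

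Of 23366 symbols, 23004 (98.5%) matched GENCODE M21 (GRCm38), 1272 of them through a RefSeq synonym. That annotation gave lengths, GC content and 3′ UTRs and no coordinates. Gene lists and members were chosen with earlier results of these data known. The genes named are the 6 members, Cyrano, other family rows with reads, the 5 profiles nearest to Lgals3, and in each list the called genes or the 4 of lowest p with the 2 most abundant, not all of them printed. The neighbours of Lgals3, Cdc42ep1, the genes at 0 and a few others were named after their values were seen. Alternatives were other factors, filters and tools (DESeq2 1.42.0 and limma-voom in limma 3.58.1), an offset for length and GC content, a replicate block, and each library left out.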

Additional observations from a re-analysis of the deposited data

How the results depend on the processing

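The difference in Lgals3 kept its direction in each of 16 alternatives, at -1.89 to -1.48 on the log2 scale, and its adjusted p stayed under 0.05 in 15 of them. The exception was leaving out control library 2 (-1.48, adjusted p = 0.11), and the range over left-out libraries was also -1.89 to -1.48. Of 107 values of 7 family genes under alternatives, 105 kept direction and side of the threshold. The other exception was Lgals9, at -0.020 without knockdown library 1 and 0.21 without knockdown library 2. Lgals4 ranged from 0.31 to 1.99 over left-out controls. The alternatives refit the libraries from which Lgals3 was chosen, so they describe dependence on the processing and add no support. The other family genes began far from the threshold, with Lgals8 the lowest at an edgeR adjusted p of 0.46. That they kept their side of it therefore says little.

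The count of genes called, 11 (5 higher and 6 lower), was the same without Rn45s. It was 6 (2 and 4) under RLE scaling, 6 under the CPM filter, 26 under upper-quartile scaling, 50 (32 and 18) when only library size was used, 332 with no filter, 136 by DESeq2, 3 by limma-voom, 4 without robust estimation, 28 with the length and GC offset, and 0 to 191 over left-out libraries. Without control library 2 it was 0, without control library 1 it was 1, without knockdown library 1 it was 191 and without knockdown library 2 it was 49. Without control library 2, 1961 genes (22 of them in the lists) had an unadjusted p under 0.05 by edgeR. The call of Cyrano was also lost by limma-voom (adjusted p = 0.051).

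List genes called numbered 0, against 2 under upper-quartile scaling, 3 on library size alone, 6 with no filter, 4 by DESeq2, 2 with the length and GC offset and 0 to 5 over left-out libraries. The cause of these shifts was not tested. With a replicate block 955 genes and 20 list genes were called, and with the block and the length and GC offset 567 and 13. The replicate numbers are only shared labels, since nothing in them says that they mark a batch. Deviations of same-numbered libraries from their group means correlated at 0.244 across genes. With 2 libraries in a group this value is the same for both pairs by construction, so it is a single value. No family gene changed direction or its side of the threshold under either block. With 3 to 71 counts in a library, Lgals4, Lgals8, Lgals9 and Lgals3bp are limited by depth. DESeq2 gave no adjusted p for Lgals4, Lgals8, Lgals9 and Lgals7, and Lgals7 did not pass the CPM filter.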
